A study of Mus musculus with 8 samples.

Results

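Axon guidance ligands and receptors were followed in neural stem and progenitor cells (NSPCs) of mice in which Cre targets Ash2l, a gene whose protein is needed for methylation of lysine 4 on histone H3. The set was chosen by gene symbol: every protein-coding semaphorin of classes 3 to 7, plexin, neuropilin, ephrin, Eph receptor, Slit, Robo, netrin, Unc5 receptor and Dcc. The rule found 69 genes among the 55385 listed, 35 ligand genes and 34 receptor genes. RNA was measured as TPM (a unit that corrects each gene for its length and each library for its total) in cells sorted from mouse cortex at postnatal day 7. The 4 iKO libraries came from Nestin-CreERT2; Ash2lf/f; tdTomato mice and the 4 WT libraries from Nestin-CreERT2; tdTomato mice. All 8 therefore carried the Cre, which the Nestin promoter drives and tamoxifen activates, and the reporter, and the floxed allele was in the iKO group alone. The submitters call the libraries biological replicates, and the labels give neither the day of induction nor the number of animals behind each, so p-values reflect differences among libraries that may be technical in part or whole.

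Guidance cues are secreted or displayed by cells along a path, and growth cones and migrating cells read them through surface receptors. Secreted class 3 semaphorins act through neuropilins paired with plexins, and membrane semaphorins bind plexins directly. Ephrins are held on membranes and bind Eph receptor tyrosine kinases, with signals passing into both cells. Slits repel through Robo receptors, and netrins attract through DCC or repel through UNC5 receptors. In the postnatal forebrain, Slits and Robos guide neuroblasts that leave the ventricular zone for the olfactory bulb, and several of the same receptors shape blood vessels.

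Libraries were alike within groups, with correlations of log2(TPM + 1) of 0.9871 to 0.9897, against 0.9623 to 0.9645 between groups, and no library stood apart. Ash2l itself stood at 7.54, 6.11, 7.69 and 7.18 TPM in iKO replicates 1 to 4, against 18.1, 16.1, 19.2 and 17.2 TPM in WT replicates 1 to 4. The 10 stem cell and radial glia markers summed to 4004 to 4099 TPM in iKO libraries, against 4748 to 4856 TPM in WT libraries, with 2 higher, 5 lower and 3 not passing. Nes and Fabp7 were the 2 higher, and Vim, Slc1a3, Hes1, Prom1 and Gfap the 5 lower. Single abundant genes weigh on such a sum. Without Slc1a3, a glutamate transporter shared with astrocytes, it was 2803 to 2841 TPM in iKO libraries, against 2728 to 2775 TPM in WT libraries. That remainder holds Fabp7, which averaged 925 TPM in iKO and 664 TPM in WT. Other cell types' markers were present in every iKO library and moved too. The 15 endothelial markers, such as Cldn5 and Pecam1, summed to 1168 to 1238 TPM in iKO libraries, against 665 to 697 TPM in WT libraries, with 14 higher and none at 0. Astrocyte markers (8 genes, 1 higher and 6 lower) summed to 2737 to 2888 TPM in iKO libraries, against 4010 to 4135 TPM in WT libraries, and microglia markers (9 genes, 7 lower) to 556 to 575 TPM in iKO libraries, against 688 to 737 TPM in WT libraries. Oligodendrocyte precursor markers (6 genes, 1 higher and 4 lower) overlapped in sum, and oligodendrocyte markers (4 tested, 3 higher and 1 lower) summed to 209 to 225 TPM in iKO libraries, against 185 to 196 TPM in WT libraries. Red blood cell markers (5 tested, 5 higher) summed to 720 to 840 TPM in iKO libraries, against 69.8 to 81.0 TPM in WT libraries. Nasal epithelium markers (7 genes, 7 higher) summed to 190 to 230 TPM in iKO libraries, against 5.44 to 7.90 TPM in WT libraries, with 4 of them at 0 in all WT libraries. Pericyte and smooth muscle markers (8 tested, 3 higher and 3 lower) summed to 963 to 1015 TPM in iKO, against 826 to 878 TPM in WT. Neuroblast markers (9 genes, 7 higher and 2 lower) summed to 2325 to 2398 TPM in iKO libraries, against 2219 to 2261 TPM in WT libraries, and mature neuron markers (6 tested, 3 higher and 2 lower) to 237 to 244 TPM in iKO libraries, against 192 to 197 TPM in WT libraries. The part of these cell types in the results that follow was not tested unless stated. In bulk RNA, fewer cells of a type and less RNA per cell cannot be told apart. A score of Y-linked genes minus Xist was -0.82 to -0.26 in iKO libraries, against 0.57 to 1.01 in WT libraries, so this score differed with genotype and cannot be told apart from it.

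Of the 69 genes, 56 reached 1 TPM in at least 4 libraries and were tested by limma on log2(TPM + 1), fitted over all 16413 genes that passed this filter. At an adjusted p under 0.05, 10 were higher in iKO, 12 were lower and 34 did not pass. That is 39.3% of the tested members, where 52.6% of all tested genes were called. By direction, 17.9% of the members were higher (all tested genes, 20.7%) and 21.4% were lower (all tested genes, 31.9%). The changes were moderate on the log2(TPM + 1) scale, where changes of low genes come out too small. On it, 20 of the 22 called members had an absolute log2 fold change of at least 0.25, 5 reached 0.5 and none reached 1. The median absolute change was 0.170 for the tested members and 0.222 for all tested genes. The median log2 fold change was -0.083 for the tested members and -0.061 for all tested genes. The libraries did not overlap between groups for 24 tested members, 9 higher and 15 lower in iKO. Over all tested genes, 49.2% did not overlap, 19.2% higher and 29.9% lower. Of the 22 called members, Plxnd1 alone overlapped. The split between directions depended on scaling. After quantile normalization, 15 members were higher and 9 lower, where 25.4% of all tested genes were higher and 25.8% lower. With trimmed mean factors, 13 members were higher and 12 lower, against 26.5% and 25.3% of all tested genes. With the sex score as covariate, 0 members were called higher and 1, Sema4a, lower, where 1.19% of all tested genes were higher and 1.39% lower. Ash2l itself did not pass in that fit (-1.07, limma adjusted p = 0.142). The standard errors of the 22 called members were larger there by a median factor of 4.07. Their direction was the same for 21, and the change was at least as large for 12. Slit2 stood at -1.02 (SE 0.389, limma adjusted p = 0.222) and Robo4 at 0.65 (SE 0.182, limma adjusted p = 0.116) in that fit. Nrp1 shrank to -0.046 and Epha5 to 0.13, and Epha7 changed sign. The score did not overlap between the groups, so that fit cannot separate it from genotype.

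**Figure D1:**
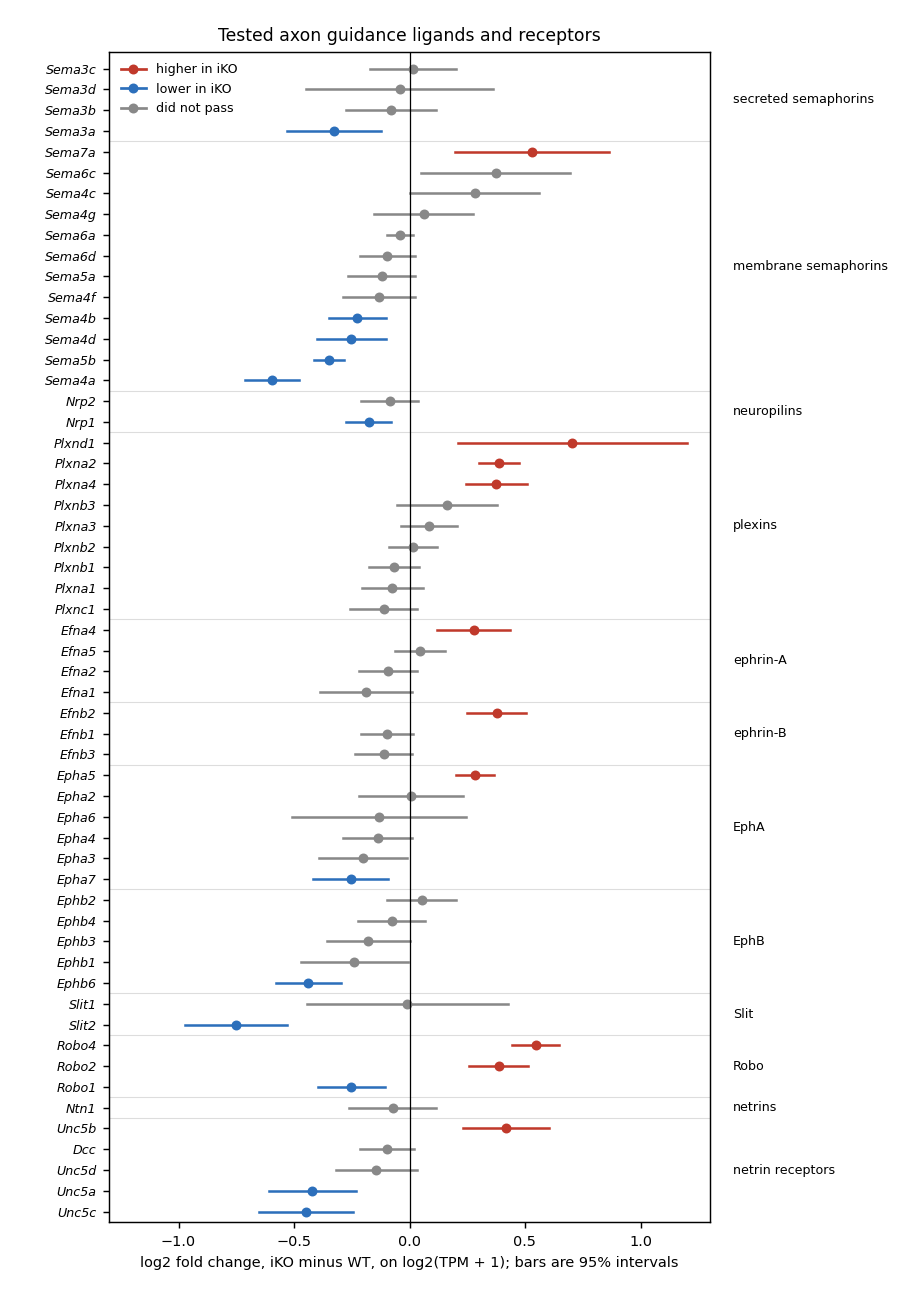
Change of each tested member as iKO minus WT in mean log2(TPM + 1), with its 95% interval from limma; members are grouped by family and coloured by whether they passed the adjusted p of 0.05. Slit2 and Sema4a lie farthest to the left, and the 9 plexins include 3 higher members and no lower one.

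Summed over all members, transcripts came to 898 to 921 TPM in iKO libraries, against 920 to 950 TPM in WT libraries. The ligand genes summed to 417 to 434 TPM in iKO libraries, against 459 to 476 TPM in WT libraries, with no overlap. Receptor genes summed to 476 to 487 TPM in iKO libraries, against 461 to 482 TPM in WT libraries, which overlapped. Sums were lower in every iKO library for membrane semaphorins, neuropilins, EphB receptors and netrin receptors. They were higher in every iKO library for plexins and Robos. The other 6 families overlapped between the groups. These sums give abundant genes the most weight and were not tested. They were taken without the trimmed mean factors, which were 0.974 to 0.978 in iKO libraries and 1.015 to 1.036 in WT libraries. Small differences in sum, as over all members, all ligands or all receptors, therefore depend on scaling in size, overlap or direction.

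**Figure D2:**
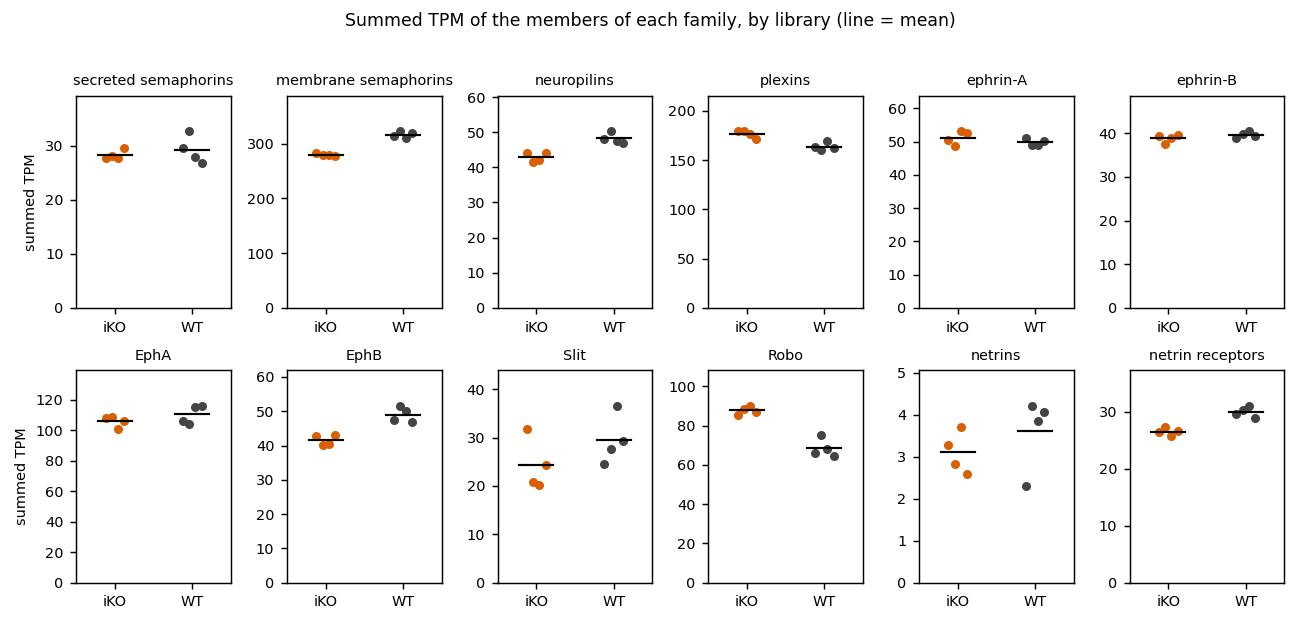
Summed TPM of the members of each family in each library, with the mean as a line; the vertical axes start at 0 and differ between panels. Robo sums average 87.7 TPM in iKO and 68.5 TPM in WT; membrane semaphorin sums average 279 TPM in iKO and 316 TPM in WT.

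The Slit ligands and their Robo receptors held the largest fall among the tested members, in Slit2, together with rises of Robo2 and Robo4. Slit2, a repellent of migrating neuroblasts and commissural axons, fell by 44.8%. Its level was 5.69, 5.25, 4.02 and 4.23 TPM in iKO replicates 1 to 4, against 8.44, 8.78, 8.98 and 8.56 TPM in WT replicates 1 to 4. Every iKO library lay below every WT library, with means of 4.79 ± 0.803 TPM in iKO, against 8.69 ± 0.239 TPM in WT (SD, n = 4 each). The log2 fold change was -0.75 (SE 0.0966, limma adjusted p = 0.000212), and -0.88 in the authors' deposited table. Slit3, a related ligand, was below the filter at 0.729, 0.180, 0.139 and 0.320 TPM in iKO, against 0.884, 2.26, 1.60 and 1.21 TPM in WT. Its groups did not overlap, and its iKO mean was 0.230 of the WT mean (exact permutation p = 0.0286, the smallest that 8 libraries allow; 0.248 adjusted over the 13 members below the filter). In the authors' deposited table Slit3 had a value of -2.32 (log2, adjusted p = 4.35e-13) and a mean normalized signal of 27.3.

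Slit1, the most abundant ligand of the family, varied more within groups than between them. It stood at 25.5, 15.4, 16.0 and 19.7 TPM in iKO, against 15.1, 16.5, 26.0 and 19.6 TPM in WT. The interval of its log2 fold change ran from -0.45 to 0.43, which holds changes as large as those of Robo1 and Robo2 but not that of Slit2. In the authors' deposited table Slit1 was called higher, at 0.18 with an adjusted p of 0.00309.

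Among the receptors, Robo2, the most abundant, rose in iKO. It stood at 61.3, 64.5, 64.8 and 63.5 TPM in iKO, against 47.3, 54.1, 48.3 and 44.3 TPM in WT. The lowest iKO library lay above the highest WT library, and the log2 fold change was 0.39 (SE 0.0563, limma adjusted p = 0.000451). Robo1, its close relative, fell in the same libraries, at 6.66, 6.86, 7.70 and 6.63 TPM in iKO against 7.91, 8.86, 8.45 and 8.66 TPM in WT. The fall of Robo1 was smaller (-0.25, SE 0.0635, limma adjusted p = 0.00932) and no longer passed with quantile normalization (-0.14, limma adjusted p = 0.0961). Robo4, a receptor of blood vessel endothelium, rose to 17.2, 16.9, 17.5 and 16.7 TPM in iKO, against 10.7, 11.9, 11.5 and 11.4 TPM in WT. Its log2 fold change was 0.55 (SE 0.0448, limma adjusted p = 1.35e-05). Robo3, which acts in midline crossing, was below the filter, with 0.0621 to 0.271 TPM in iKO against 0.0373 to 0.227 TPM in WT.

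Start regions are shown for the ligands Slit2 and Slit3, lower in iKO, and the receptors Robo2 and Robo4, higher in iKO. They were picked by these directions, and Robo1, a receptor that fell, is left out. Slit3 was below the filter (exact permutation p = 0.248 after adjustment). Each region is 300 bases from RefSeq on GRCm38.p6, from 250 bases before to 50 after an annotated start, with every CG dinucleotide in capitals. Where a gene had several starts, the window with the most CG is given.
Slit2, chr5:47982905-47983204, plus strand: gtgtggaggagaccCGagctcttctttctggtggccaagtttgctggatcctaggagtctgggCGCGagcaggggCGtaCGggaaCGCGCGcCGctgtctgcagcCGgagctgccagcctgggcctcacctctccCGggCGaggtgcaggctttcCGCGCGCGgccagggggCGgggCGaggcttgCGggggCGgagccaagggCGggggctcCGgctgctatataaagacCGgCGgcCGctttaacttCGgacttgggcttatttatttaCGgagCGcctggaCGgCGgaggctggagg
Slit3, chr11:35121206-35121505, plus strand: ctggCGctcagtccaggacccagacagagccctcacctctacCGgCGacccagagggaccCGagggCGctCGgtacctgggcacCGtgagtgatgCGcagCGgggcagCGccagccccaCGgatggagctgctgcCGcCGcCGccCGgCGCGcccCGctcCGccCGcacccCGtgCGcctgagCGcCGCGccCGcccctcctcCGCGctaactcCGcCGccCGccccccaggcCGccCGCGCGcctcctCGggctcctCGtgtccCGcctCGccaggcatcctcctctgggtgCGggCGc
Robo2, chr16:74411776-74412075, minus strand: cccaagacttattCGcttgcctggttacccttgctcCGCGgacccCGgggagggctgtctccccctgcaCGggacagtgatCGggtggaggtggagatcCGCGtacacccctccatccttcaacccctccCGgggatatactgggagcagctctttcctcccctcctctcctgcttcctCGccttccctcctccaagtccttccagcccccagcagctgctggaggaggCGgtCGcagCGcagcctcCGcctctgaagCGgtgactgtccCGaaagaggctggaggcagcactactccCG
Robo4, chr9:37401722-37402021, plus strand: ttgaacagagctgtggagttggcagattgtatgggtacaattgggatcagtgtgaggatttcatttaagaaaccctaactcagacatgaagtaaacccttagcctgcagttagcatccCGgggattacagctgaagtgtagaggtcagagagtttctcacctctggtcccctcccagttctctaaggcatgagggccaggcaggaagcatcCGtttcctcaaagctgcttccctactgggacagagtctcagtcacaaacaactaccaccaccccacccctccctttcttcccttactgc

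The windows held 30 CG in Slit2, 41 in Slit3, 17 in Robo2 and 2 in Robo4. That of Robo1, not printed, held 15. CG reads the same on both strands, and 94.6% of the 32841 windows of all genes held at least 1. Over 59 members with a window the median was 23 CG, against 22 over 10712 tested protein-coding genes with a window. At least 10 CG were found in 8 of the 9 windows of members that rose (88.9%), in 10 of the 12 of members that fell (83.3%) and in 23 of the 26 of tested members that did not pass (88.5%). Among tested protein-coding genes with a window, 84.6% held as many. Sema3b, Sema3f, Sema6a, Plxna1, Plxna4, Efnb3, Slit1, Ntn1, Dcc and Unc5d had no entry.

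**Figure D3:**
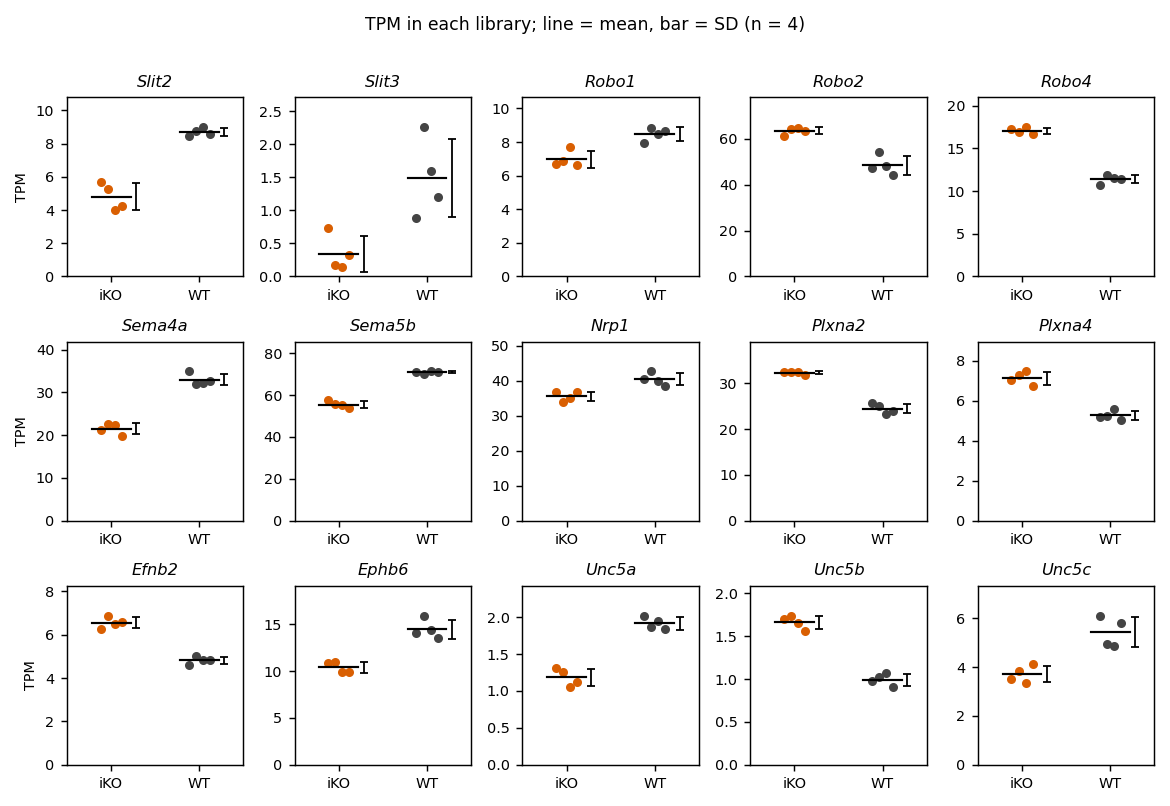
TPM of 15 members in each of the 4 iKO and 4 WT libraries, with the mean as a line and the SD as a bar; the vertical axes start at 0 and differ between panels. Only members whose iKO and WT libraries do not overlap are shown, so the 15 panels do not stand for the set. Without overlap were 42.9% of tested members and 49.2% of all tested genes. Slit2 is at 4.02 to 5.69 TPM in iKO libraries, against 8.44 to 8.98 TPM in WT libraries.

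Of 16 semaphorins tested, 1 was higher (6.25%), 5 were lower (31.2%) and 10 did not pass, where 20.7% of all tested genes were higher and 31.9% lower. The balance of directions depended on the measure. After quantile normalization, 3 were higher and 4 lower, where 25.4% of all tested genes were higher and 25.8% lower. In the authors' deposited table, 5 semaphorins were higher and 4 lower. These 5 include Sema3e, which was below the filter and not among the 16. Over the genes of the limma test, that table called 27.8% higher and 26.1% lower. Among the secreted class 3 ligands, Sema3a, a collapsing factor of cortical and sensory growth cones, was the member that fell. It stood at 1.13, 0.996, 1.28 and 0.978 TPM in iKO, against 1.72, 1.55, 1.71 and 1.53 TPM in WT (log2 fold change -0.33, SE 0.0893, limma adjusted p = 0.0137), a fall that did not pass with quantile normalization (-0.21, adjusted p = 0.0752). Sema3c, a ligand that also attracts cortical axons and the most abundant of the class, stood at 17.1, 19.0, 18.1 and 20.1 TPM in iKO, against 18.9, 21.1, 17.5 and 16.2 TPM in WT. Its groups overlapped, with an interval from -0.17 to 0.20. Sema3b (3.93, 4.17, 3.73 and 4.15 TPM in iKO; 3.69, 4.07, 4.46 and 4.96 TPM in WT) overlapped too. So did Sema3d (3.48, 1.81, 2.85 and 2.57 TPM in iKO; 3.76, 2.89, 1.96 and 2.54 TPM in WT).

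The membrane semaphorins held the 2 falls with the smallest adjusted p of the set. Sema4a, a class 4 member that binds plexins and also acts in immune cells, stood at 21.1, 22.7, 22.4 and 19.8 TPM in iKO, against 34.9, 31.9, 32.3 and 32.7 TPM in WT. Sema4a fell by 34.8% without overlap (log2 fold change -0.59, SE 0.0520, limma adjusted p = 2e-05). It was the member that still passed with the sex score as covariate (limma adjusted p = 0.0158), where 1.39% of all tested genes were lower. The score cannot be told apart from genotype, so nothing is drawn from that pass. Microglia markers, of which 7 of 9 fell, moved the same way, and their part in the level of Sema4a was not tested. Sema5b, a class 5 member that repels or inhibits axons, stood at 57.5, 55.5, 55.1 and 53.6 TPM in iKO, against 70.9, 70.1, 71.3 and 70.8 TPM in WT. The WT libraries lay close together, and the fall was -0.35 (SE 0.0287, limma adjusted p = 1.42e-05).

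A pair of class 4 members showed smaller falls. Sema4b stood at 19.6, 19.0, 20.9 and 20.2 TPM in iKO, against 24.3, 24.9, 21.5 and 23.3 TPM in WT (-0.23, limma adjusted p = 0.00736), and in the authors' deposited table it was not called (-0.089, adjusted p = 0.194). Sema4d, a ligand of plexin-B1, fell by 16.8% (-0.25, limma adjusted p = 0.0109). Sema6a, the most abundant gene of the whole set and a ligand of plexin-A2 and plexin-A4, stood at 107, 106, 105 and 109 TPM in iKO, against 109, 111, 107 and 112 TPM in WT. Its groups overlapped, and the interval of its log2 fold change was -0.097 to 0.014. Sema7a, the glycolipid-anchored class 7 member, was the semaphorin that rose, to 1.39 to 2.53 TPM in iKO, against 0.705 to 1.19 TPM in WT (0.53, limma adjusted p = 0.0143). Replicate 1 of iKO stood apart from the other iKO libraries at 2.53 TPM, and without it the rise was 0.40 (limma adjusted p = 0.0248). Sema4d and Sema7a were picked out after their values were seen. The other 6 tested members ranged from a log2 fold change of -0.13 for Sema4f to 0.37 for Sema6c and did not pass.

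Neuropilins, which bind class 3 semaphorins and vascular growth factors, stood slightly lower in iKO. Nrp1 was at 36.6, 34.0, 35.0 and 36.7 TPM in iKO, against 40.4, 42.7, 39.8 and 38.5 TPM in WT (-0.18, SE 0.0425, limma adjusted p = 0.00723). Nrp2 was at 7.38, 7.45, 7.05 and 7.56 TPM in iKO, against 7.65, 7.68, 7.73 and 8.46 TPM in WT. The Nrp2 libraries did not overlap, yet the difference did not pass (-0.086, interval -0.21 to 0.037). In the authors' deposited table neither neuropilin was called, at -0.071 for Nrp1 and -0.034 for Nrp2.

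Plexins, the signalling receptors for semaphorins, included 3 members that rose and none that fell among 9 tested, where 20.7% of all tested genes were higher and 31.9% lower. Plxna2 stood at 32.5, 32.4, 32.5 and 31.9 TPM in iKO, against 25.7, 25.0, 23.4 and 23.9 TPM in WT. The iKO libraries agreed closely and all lay above WT (0.39, SE 0.0385, limma adjusted p = 4.3e-05). Plxna4, which transmits Sema3a and Sema6a signals, stood at 7.05, 7.29, 7.46 and 6.71 TPM in iKO, against 5.19, 5.25, 5.58 and 5.02 TPM in WT (0.38, SE 0.0585, limma adjusted p = 0.00066). Plxnd1, the endothelial receptor for Sema3e, was the least stable of the 3, at 7.07, 3.56, 6.64 and 5.86 TPM in iKO against 2.37, 2.80, 4.76 and 2.71 TPM in WT. Its iKO replicate 2 lay below WT replicate 3. The rise (0.70, SE 0.218, limma adjusted p = 0.0232) no longer passed without iKO replicate 1 (adjusted p = 0.0628), 3 (0.0605) or 4 (0.0523), or without WT replicate 1 (0.061), 2 (0.0549) or 4 (0.0566). In these fits its log2 fold change was 0.61 to 0.69.

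Plxnb2, a receptor for class 4 semaphorins that is abundant in dividing neural progenitors, was the most abundant plexin. It stood at 79.0, 79.7, 77.6 and 73.5 TPM in iKO, against 75.5, 73.8, 83.6 and 74.3 TPM in WT. Its interval was -0.091 to 0.12, with the groups overlapping throughout. The remaining plexins, Plxna1, Plxna3, Plxnb1, Plxnb3 and Plxnc1, ranged from -0.11 to 0.16 and did not pass.

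Among the ephrins, 2 ligands rose, none fell and 5 did not pass, where 20.7% of all tested genes were higher and 31.9% lower. Efna4, a lipid-anchored ligand, stood at 17.0, 17.6, 20.1 and 20.1 TPM in iKO, against 16.5, 15.3, 14.5 and 14.6 TPM in WT (0.28, SE 0.0696, limma adjusted p = 0.00900). Efnb2, a transmembrane ligand that marks arterial endothelium and is also made by progenitors, stood at 6.27, 6.89, 6.50 and 6.60 TPM in iKO, against 4.60, 5.01, 4.83 and 4.83 TPM in WT. Its groups were well apart, with a log2 fold change of 0.38 (SE 0.0563, limma adjusted p = 0.000515). The abundant ligand Efnb3 stood at 18.5, 15.9, 16.5 and 16.9 TPM in iKO, against 17.6, 19.0, 18.7 and 18.3 TPM in WT. Efnb1 stood at 14.5, 14.7, 15.8 and 16.1 TPM in iKO, against 16.6, 15.7, 16.9 and 16.2 TPM in WT. These 2 overlapped between groups, with intervals from -0.23 to 0.010 for Efnb3 and from -0.21 to 0.017 for Efnb1. Efna1 (7.89, 6.91, 7.65 and 7.32 TPM in iKO; 9.11, 8.33, 7.33 and 9.88 TPM in WT) did not pass. Efna2 (16.3, 14.6, 16.2 and 16.2 TPM in iKO; 16.8, 16.1, 18.3 and 16.4 TPM in WT), as well as Efna5 (means of 8.50 TPM in iKO and 8.20 TPM in WT) did not pass either. Single libraries mattered for 2 of these: Efna1 passed without WT replicate 3 (-0.26, limma adjusted p = 0.0226) and Efnb3 without iKO replicate 1 (-0.15, 0.0329). Both libraries were those of their group nearest the other group, so leaving them out had to widen the difference.

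Eph receptors went both ways, with 1 higher, 2 lower and 8 not passing, where 20.7% of all tested genes were higher and 31.9% lower. Epha5, a receptor for A-type ephrins in forebrain axons, rose to 26.7, 28.3, 27.2 and 26.4 TPM in iKO, against 22.3, 21.9, 21.8 and 22.4 TPM in WT (0.28, SE 0.0365, limma adjusted p = 0.000213). Epha7 was lower, at 6.41, 7.17, 6.92 and 7.45 TPM in iKO against 7.57, 9.10, 8.52 and 8.95 TPM in WT (-0.26, SE 0.0714, limma adjusted p = 0.0151). That fall of Epha7 did not pass with quantile normalization (-0.14, adjusted p = 0.126) or in the authors' deposited table (-0.15, adjusted p = 0.0714). With the sex score as covariate it turned to 0.13 (adjusted p = 0.848). Ephb6, a member whose kinase domain is catalytically inactive, fell most, at 10.9, 11.0, 9.94 and 9.92 TPM in iKO against 14.1, 15.9, 14.3 and 13.6 TPM in WT (-0.44, SE 0.0623, limma adjusted p = 0.000392).

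Epha4, which binds ephrins of both classes, was the most abundant Eph receptor. It stood at 64.2, 61.1, 56.6 and 62.8 TPM in iKO, against 63.5, 61.3, 72.4 and 72.8 TPM in WT, and did not pass (-0.14, interval -0.29 to 0.011). Epha3 stood at 7.74, 8.09, 6.67 and 6.27 TPM in iKO, against 8.69, 7.68, 8.83 and 8.38 TPM in WT. Both receptors overlapped between groups. Ephb1 (7.27, 6.50, 6.28 and 7.13 TPM in iKO; 7.25, 9.02, 9.69 and 7.07 TPM in WT), like Ephb3 (11.4, 10.5, 10.4 and 13.3 TPM in iKO; 12.7, 13.3, 12.2 and 13.7 TPM in WT), overlapped as well. Epha3 passed without iKO replicate 2 (limma adjusted p = 0.0364) and Epha4 without WT replicate 2 (0.0416). Ephb1 passed without WT replicate 4 (0.0394) and Ephb3 without iKO replicate 4 (0.0108). Each library left out was the one of its group nearest the other group. Leaving it out had to widen the difference, so these passes add no support for a fall. In the authors' deposited table Epha3 (0.062), Epha4 (0.23) and Ephb1 (0.0088) had the opposite sign, and Ephb3 (-0.30) the same. Epha2, Epha6, Ephb2 and Ephb4 ranged from -0.13 to 0.053 and did not pass.

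Of the 4 netrin ligands only Ntn1 passed the filter, while all 5 netrin receptors did. Over the 8 libraries Ntn1 averaged 1.58 TPM, slightly above Unc5a at 1.55 TPM and Unc5b at 1.33 TPM. The other receptors averaged 2.62 to 18.2 TPM. Ntn1, the main chemoattractant of commissural axons, stood at 1.38, 1.51, 1.62 and 1.56 TPM in iKO, against 1.46, 1.70, 1.73 and 1.70 TPM in WT, with an interval from -0.26 to 0.12. Dcc, the attractive receptor, was the most abundant receptor of the family at 17.4, 18.0, 17.2 and 17.6 TPM in iKO, against 17.7, 19.5, 20.2 and 17.9 TPM in WT. Its groups overlapped at the edge, and the difference did not pass (-0.096, interval -0.21 to 0.020).

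The repulsive UNC5 receptors moved in different directions. Unc5a stood at 1.31, 1.25, 1.05 and 1.12 TPM in iKO, against 2.02, 1.86, 1.95 and 1.84 TPM in WT, a fall of -0.42 (SE 0.0832, limma adjusted p = 0.00264). Unc5c stood at 3.52, 3.82, 3.37 and 4.13 TPM in iKO, against 6.11, 4.94, 4.86 and 5.80 TPM in WT, a fall of -0.45 (SE 0.0898, limma adjusted p = 0.00286). Neither overlapped between groups, but for Unc5c the authors' deposited table gave only -0.13 (adjusted p = 0.174). Unc5b, which is also an endothelial receptor, rose to 1.70, 1.74, 1.66 and 1.56 TPM in iKO, against 0.978, 1.02, 1.07 and 0.904 TPM in WT. It was higher in 4 of 4 iKO libraries than in any WT library (0.42, SE 0.0819, limma adjusted p = 0.00246). Unc5d, with means of 2.44 TPM in iKO libraries and 2.79 TPM in WT libraries, did not pass.

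Several members that rose are known from endothelium, so their levels were set against the summed TPM of the 15 endothelial markers, of which 14 were higher in iKO. Robo4 came to 1.42% ± 0.0463 of that sum in iKO and 1.66% ± 0.0372 in WT (SD, n = 4 each). Its share was therefore lower in iKO although its TPM was higher. Cldn5 weighs most in the marker sum, with means of 627 TPM in iKO and 335 TPM in WT, so the shares depend largely on that gene. Efnb2 came to 0.545% ± 0.0308 in iKO and 0.704% ± 0.0130 in WT, and Unc5b to 0.138% ± 0.00946 in iKO and 0.145% ± 0.00868 in WT. Unc5b shares overlapped between the groups. Plxnd1 shares overlapped too, at 0.478% ± 0.125 in iKO and 0.460% ± 0.151 in WT. Nrp1, expressed by neural cells and vessels, came to 2.95% ± 0.0634 in iKO and 5.90% ± 0.234 in WT, while Ephb4, a venous receptor, came to 0.622% ± 0.0353 in iKO and 1.16% ± 0.0639 in WT. These shares were computed after the TPM values were seen and were not tested.

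**Figure D4:**
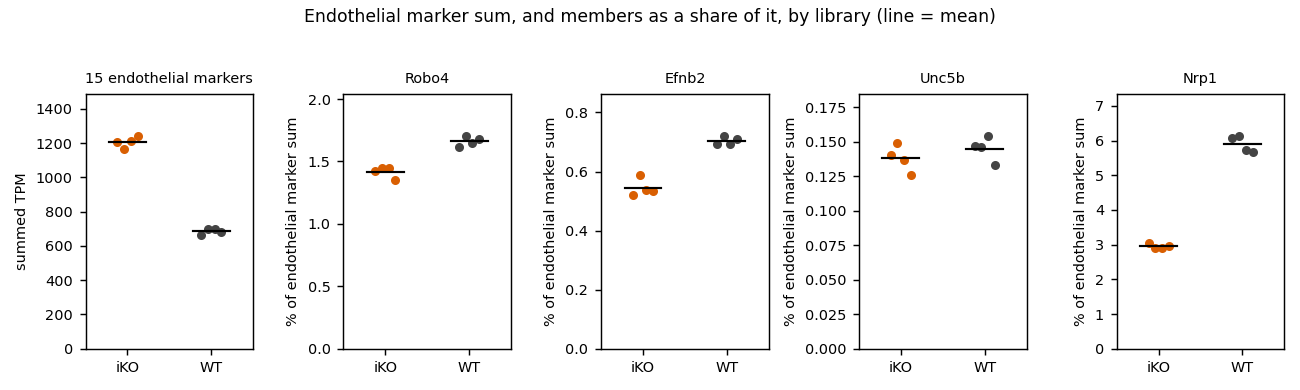
Summed TPM of 15 endothelial markers, and the TPM of Robo4, Efnb2, Unc5b and Nrp1 as a percentage of that sum, in each iKO and WT library with the mean as a line; the vertical axes start at 0. The marker sum is 1168 to 1238 TPM in iKO libraries, against 665 to 697 TPM in WT libraries, and Robo4 shares average 1.42% in iKO and 1.66% in WT.

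The 13 members below the filter were Sema3e, Sema3f, Sema3g, Sema6b, Efna3, Epha1, Epha8, Epha10, Slit3, Robo3, Ntn3, Ntn4 and Ntn5. Slit3 was the only one whose groups did not overlap, against 13.6% of the 13077 genes below the filter with a value above 0. Ntn4, a netrin of vessel walls, came close at 0.148, 0.315, 0.622 and 0.0885 TPM in iKO, against 0.365, 1.38, 1.05 and 1.44 TPM in WT (exact permutation p = 0.0571), and the authors' deposited table gave it -1.76 with an adjusted p of 0.00715. Sema6b had the same exact permutation p of 0.0571, with 0.880 to 1.09 TPM in iKO libraries against 0.556 to 0.941 TPM in WT libraries. Sema3e, the ligand of Plxnd1, averaged 0.797 TPM in iKO and 0.648 TPM in WT (exact permutation p = 0.143). In the authors' deposited table Sema3e was called higher, at 0.64 with an adjusted p of 0.00602. For the 9 others the exact permutation p was 0.0857 to 0.514. Their means were all under 1.2 TPM: Sema3f 0.777 and 1.16, Sema3g 0.394 and 0.299, Efna3 0.797 and 0.901, Epha1 0.445 and 0.725, Epha8 0.478 and 0.415, Epha10 0.513 and 0.654, Robo3 0.183 and 0.136, Ntn3 0.880 and 0.612, and Ntn5 0.419 and 0.297 TPM in iKO and WT.

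The authors' own comparison of the same libraries is a second measure of these genes. In the authors' deposited table, 26 of the 56 tested members were called, 17 higher and 9 lower, which is 46.4%. Over the genes of the limma test that table called 53.9%, with 27.8% higher and 26.1% lower. Over all 29420 genes with a p in the authors' deposited table, 33.9% were called, 17.1% higher and 16.7% lower, and there 18 of the 69 members were higher and 11 lower. Both measures called 18 members in the same direction, TPM alone called 4 (Sema4b, Nrp1, Epha7 and Unc5c), and that table alone called 8. These 8 were Sema4c, Sema6a, Sema6c, Plxna3, Epha4, Ephb3, Slit1 and Dcc. The 2 fold changes differed in sign for 8 members, none of them called by both. Epha4 was the widest case, at -0.14 in TPM and 0.23 in the authors' deposited table (adjusted p = 4.11e-19). Dcc stood at -0.096 in TPM and 0.13 in the authors' deposited table, Sema6a at -0.042 and 0.075, and Slit1 at -0.0096 and 0.18. The remaining 4, Sema3b, Plxnc1, Epha3 and Ephb1, were called by neither. The table's values lay above those from TPM by a median of 0.082 (log2) for tested members and 0.070 for all tested genes.

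**Figure D5:**
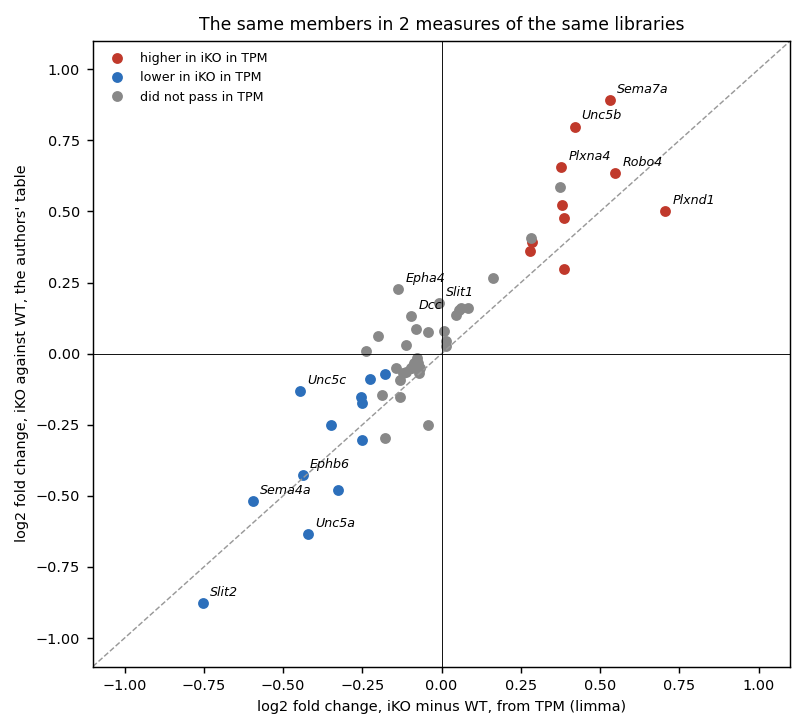
Log2 fold change of each tested member from TPM (horizontal) and in the authors' table (vertical), both iKO against WT in the same libraries; the dashed line marks equal values. Epha4 lies at -0.14 and 0.23, Slit2 at -0.75 and -0.88, and Unc5c at -0.45 and -0.13.

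Other genes of axon guidance were taken as a list of 94, made up of co-receptors, further cues and intracellular effectors. Of these 94, all tested, 19 were higher in iKO, 27 were lower and 48 failed the threshold. Their median change was -0.054 (log2). For all tested genes the shares called were 20.7% higher and 31.9% lower. More of the 94 were called higher with trimmed mean factors or after quantile normalization, so the count of rises depended on scaling here too. Rgma, a ligand of neogenin, fell to 21.6, 18.0, 18.7 and 19.2 TPM in iKO, against 35.0, 34.2, 34.7 and 33.3 TPM in WT (-0.80, SE 0.0556, limma adjusted p = 4.96e-06). Farp1, a guanine nucleotide exchange factor gene whose product binds plexin-A receptors, fell to 14.7, 13.6, 14.8 and 15.8 TPM in iKO, against 23.6, 25.2, 26.9 and 24.9 TPM in WT (-0.73, limma adjusted p = 9.27e-06). The adhesion molecule gene Alcam fell to 57.7, 60.1, 60.4 and 64.5 TPM in iKO, against 88.8, 84.3, 85.0 and 85.3 TPM in WT (-0.49, limma adjusted p = 7.73e-06). These 3 falls were clear of overlap.

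Among the rises, Ngef, which encodes ephexin, a protein that acts downstream of EphA receptors, reached 40.6, 42.8, 43.9 and 43.8 TPM in iKO, against 24.4, 27.2, 24.6 and 26.0 TPM in WT (0.72, SE 0.0456, limma adjusted p = 2.83e-06). Rnd3, which promotes migration of newborn cortical neurons, reached 321, 313, 307 and 305 TPM in iKO, against 222, 231, 234 and 226 TPM in WT (0.45, limma adjusted p = 1.21e-06). Cfl1, the actin-severing protein cofilin, rose slightly, to 3123, 3126, 3094 and 3079 TPM in iKO, against 2810, 2685, 2756 and 2757 TPM in WT (0.17, limma adjusted p = 1.02e-05). No library overlapped between groups for any of these 3 genes. The 6 genes described were picked for the smallest p among the 94, so a lack of overlap goes with that choice. Of the 94, 43 did not overlap, where 49.2% of all tested genes did not.

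Overlapping annotation touched few of the values above. In GENCODE M21, 18 of the 69 members shared exon bases with another gene, and Smart-Seq2 does not keep the strand. Epha1 alone shared at least 5% of its exon bases (6.01%) with a gene above 1 TPM, Zyx at a mean of 31.0 TPM on the opposite strand, so its low level is uncertain.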

How the data were processed

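RNA of FACS-sorted NSPCs was amplified by Smart-Seq2, sheared and sequenced as paired ends, per the labels' protocols. The authors deposited TPM for 8 libraries and a table of their own comparison. Per the file headers, that table holds, for each gene, a mean normalized signal, a log2 fold change and its error, a score, and raw and adjusted p-values, under the headings DESeq2 writes. How TPM were computed, and on which build, is not given in the sources used here. TPM keeps no depth, so the depth and the counting precision are unknown.

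Genes with at least 1 TPM in at least 4 libraries entered limma (version 3.58.1, R 4.3.3) as log2(TPM + 1). The two-sided test used a variance trend, robust moderation and Benjamini-Hochberg adjustment over 16413 genes. All fold changes give iKO minus WT on this log2(TPM + 1) scale, where changes of low genes come out too small. Members below that filter had a two-sided exact permutation test on log2(TPM + 1), enumerating 70 assignments of libraries. The fit was tested on simulated data. Groups came from the sample titles.

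The members and lists were chosen with earlier results of these data known. In each family the 3 members with the smallest p and the most abundant are given by library, as are the 6 other guidance genes with the smallest p. Alternatives were quantile normalization, trimmed mean factors without weights, pseudocounts of 0.1 or 5, omitting the filter or raising it to a mean of 5 TPM, a replicate block, each library left out in turn, the deposited comparison, and a covariate for sex, scored as log2(TPM + 1) averaged over the Y-linked Ddx3y, Eif2s3y, Kdm5d and Uty, less that of Xist. Figures used matplotlib 3.10.9.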

Additional observations from a re-analysis of the deposited data

Results flagged for a closer look

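Within groups of 4 libraries, the gap between the highest or lowest value and its neighbour was compared with the whole range, and a library was taken to stand apart where that ratio passed Dixon's 95% limit for 4 values. Of 152 groups looked at, 9 did so, and chance alone gives about 7.6. Efna2 stood at 14.6 TPM in iKO replicate 2, against 16.2 to 16.3 TPM in the other iKO libraries. Nrp2 stood at 8.46 TPM in WT replicate 4, against 7.65 to 7.73 TPM in the other WT libraries. Plxnb2 stood at 83.6 TPM in WT replicate 3, against 73.8 to 75.5 TPM in the others. Ntn1 was low in WT replicate 1 at 1.46 TPM, against 1.70 to 1.73 TPM in the others. Sema3e was low in WT replicate 1 at 0.483 TPM, against 0.695 to 0.716 TPM in the others. Plxnc1 was high in WT replicate 1 at 8.86 TPM, against 7.55 to 7.64 TPM in the others, and Ephb4 in WT replicate 3 at 8.70 TPM, against 7.65 to 7.78 TPM. Epha6 was low in iKO replicate 4 at 0.600 TPM, against 1.16 to 1.24 TPM in the other iKO libraries. None of these 8 genes passed its test. Sema7a, which did pass, stood at 2.53 TPM in iKO replicate 1, against 1.39 to 1.53 TPM in the other iKO libraries.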

How the results depend on the processing

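With the sex score as covariate, members called went to 0 higher and 1 lower, other guidance genes to 2 and 0, all genes to 195 and 228, and Ash2l to -1.07 (adjusted p = 0.142); the score differs with genotype in every library, and the cause was not tested. The authors' deposited table called 18 of the 69 members higher (10 with limma) and 33 of the other guidance genes higher (19 with limma). Sign changes there were Sema6a (0.075), Epha4 (0.23), Slit1 (0.18) and Dcc (0.13), and with the sex score Epha7 (0.13). Leaving out single libraries gave 9 to 10 members higher and 12 to 13 lower, 15 to 18 and 24 to 26 other guidance genes, 3105 to 3231 and 4819 to 5041 of all genes, and -1.24 to -1.14 for Ash2l. Leave-one-out gives no usable test for members below the filter. Same-numbered libraries did not deviate together (correlations -0.0445 to 0.000694), so the numbers do not pair them; a replicate block gave 10 members higher and 12 lower and changed no call among the 56. Pseudocounts and filters changed 1 of these calls, Sema6c at a pseudocount of 5 (0.17, adjusted p = 0.0477). Without the filter, limma called 10 of all 69 members higher and 14 lower, where 32.2% of 29490 genes were called. The additional lower calls are of members below the filter. With unknown depth, genes near 1 TPM are the least certain.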
